A study of Mus musculus with 7 samples.

Results

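Kinesins are motor proteins that walk along microtubules, and the 48 genes described here encode the mouse kinesin motors named Kif, Kifc or Kifap3 and the kinesin light chains Klc1 to Klc4. They were chosen by gene symbol alone among the 54309 genes of the table. Symbols outside that pattern, such as Cenpe and Stard9, were not included. Of the 48 genes, 20 were placed with the axonal transport motors and light chains, 13 with the mitotic kinesins and 15 with other kinesins. In all, 34 genes had a mean of at least 1 TPM (a relative transcript level that is scaled for transcript length) over all samples and were tested.

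The samples were dorsal root ganglia of male C57bl/6 mice aged 6 to 8 weeks, from which neurons had been enriched on an albumin gradient. All mice had a sciatic nerve injury, made either at ZT20 (4 samples) or at ZT8 (3 samples), where ZT counts hours from lights on, and the lumbar ganglia were collected 72 h later. There was no uninjured group, and injury and collection fell at the same ZT, so their effects cannot be told apart. Nothing states that each sample was a single animal, so p-values measure only the spread between these samples. Library identifiers were numbers at ZT20 and letters at ZT8, so any batch behind them and the group cannot be told apart.

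Most kinesins move towards the growing end of microtubules, which in an axon means away from the cell body. In sensory neurons they carry vesicles, mitochondria and neurofilaments over long distances, and both axon upkeep and regrowth need that supply. Kinesin-1 is made of Kif5 heavy chains and Klc light chains that bind cargo, kinesin-2 of Kif3 motors and the Kifap3 subunit, and kinesin-3 includes Kif1a and Kif1b. Other kinesins build and move the mitotic spindle and are found mainly in dividing cells.

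TPM sums to 1000000 in each sample, so sequencing depth is unknown. ZT8 replicate 2 stood apart, with 18297 genes above 0 TPM against 22541 and 22973 for the remaining ZT8 libraries and a range of 24192 to 25238 for ZT20. ZT20 replicates 3 and 4 went against their male label: Ddx3y, Eif2s3y and Uty were listed at 0 in both, and Xist was at 2.21 and 2.30 TPM. ZT20 replicate 2 was mixed, with Xist at 1.08 TPM beside Ddx3y at 11.7 and Eif2s3y at 14.6 TPM, while Xist was at 0.00466 TPM or less in ZT20 replicate 1 and the ZT8 samples. Leaving out replicates 3 and 4 therefore does not remove every conflict with the label, and a fit without replicates 2, 3 and 4, which would leave 1 ZT20 sample, was not run. Summed satellite glia markers (6 genes) ran from 6959 to 8436 TPM at ZT20 and from 11776 to 14456 TPM at ZT8, without overlap, while summed neuron markers (10 genes) ran from 17588 to 22565 TPM and from 13756 to 21160 TPM. Most of the satellite glia sum was Apoe, at 6261 to 7615 TPM and 10623 to 13557 TPM. Fabp7 and Slc1a3 also lay lower at ZT20 without overlap, while Glul, Gja1 and Kcnj10 overlapped. A score of neuron minus other markers was used as a covariate, given below, and fewer cells of a type cannot be told apart from less RNA per cell.

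Transport kinesins were abundant in these ganglia, and 8 of the 17 tested transport motors and light chains were higher at ZT20. In limma, with p-values adjusted by Benjamini-Hochberg across 14800 genes, 10 of the 34 tested kinesins and light chains (29.4%) rose at ZT20 and 0 fell at an adjusted p under 0.05. Over all tested genes 16.4% passed, 12.8% higher and 3.61% lower. The 10 were Kif1b, Kif2a, Kif16b, Kif5a, Kif3b, Kif3c, Kif26b, Kifap3, Kif21a and Kif5c. The lowest ZT20 sample exceeded the highest ZT8 sample for 17 of the 34 tested members, and the order was the opposite for Klc4, against 24.5% and 8.72% of all genes, and 17 members had an unadjusted p under 0.05, against 34.6% of all genes. The median log2 difference (ZT20 minus ZT8 on the log2(TPM + 1) scale, which understates changes of low genes) was 0.65 over the tested members and 0.23 over all tested genes. With median-ratio scaling, which moved the median of all genes to 0.019, the same 10 genes passed higher and Klc4 passed lower, against 7.35% of all genes higher and 8.47% lower. Without ZT20 replicate 2 the number was 11, against 9.45% of all genes higher. It was 5 without ZT20 replicate 3 and 6 without ZT20 replicate 4, all higher, and the share of all genes higher was then 3.67% and 4.67%. Without both of those libraries 0 of 34 passed, as did 0 of all 14800 genes in limma, while 12 of 34 members and 2425 of all genes had an unadjusted p under 0.05. The members' median log2 difference in that fit was still 0.65, and Kif1b was at 1.43. Without ZT8 replicate 2 the number was 13, all higher, against 16% of all genes higher.

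**Figure D1:**
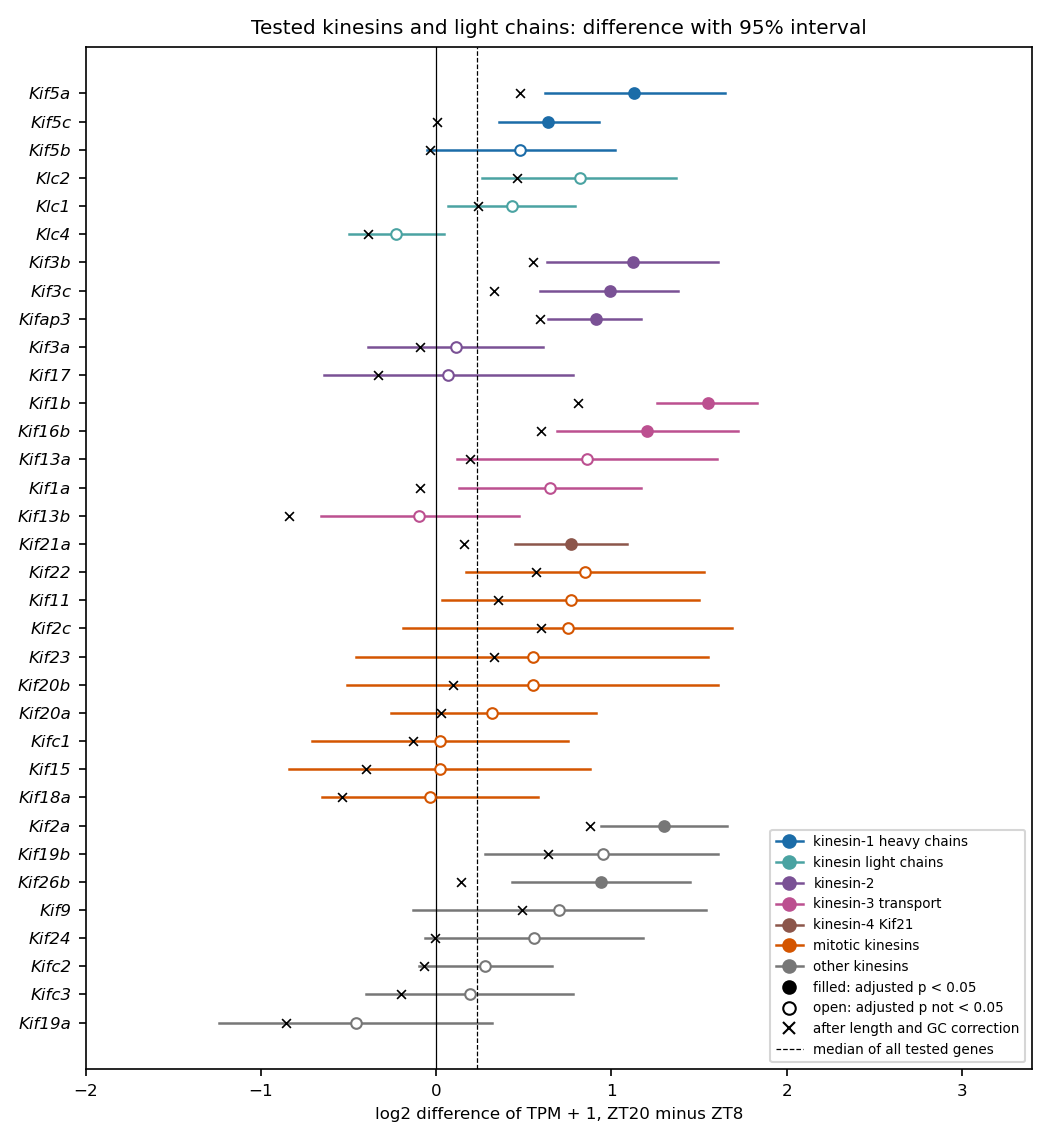
Log2 difference of TPM + 1 (ZT20 minus ZT8, horizontal axis) for the 34 tested kinesins and light chains, with the 95% interval of limma as a line, colour by functional group, and filled points for an adjusted p under 0.05. Crosses give the difference after correction for transcript length and GC content, and the dashed line is the median of all tested genes at 0.23; most crosses lie left of their point.

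Kinesin transcripts are long, and in this table the difference between the groups grew with transcript length. The median of the longest annotated transcript was 4838 nt for the 34 tested members and 3108 nt for all tested genes. With all tested genes placed by length in 10 bins of equal size, 27.2% of genes in bin 9 and 36.5% in bin 10, the longest, passed higher at ZT20. Each of these bins held 8 tested members, of which 5 and 4 passed. The remaining call, Kifap3, lay in bin 7, where 13.5% of all genes passed higher. Of the members in bins 4, 5, 6 and 8 (3, 2, 9 and 2 genes), 0 passed in limma, where 4.81%, 5.43%, 8.47% and 19.7% of all genes passed higher, though Klc1, Klc2, Kif22, Kif11 and Kif19b had an unadjusted p under 0.05. Once the dependence on length and GC content had been taken out of every sample, 3 of 34 members passed, all higher, against 3.8% of all genes higher and 5.26% lower: Kif1b, Kif2a and Kifap3. With a score of neuron minus other cell type markers as covariate, the same 3 genes passed, all higher, against 1.17% of all genes higher. Of the differences that lost their call with this covariate, those of Kif3c, Kif3b and Kif26b were of similar size with larger standard errors. Kif3c was at 0.97 ± 0.28 in place of 0.99 ± 0.17, and Kif3b at 1.07 ± 0.35 in place of 1.12 ± 0.22. Kif26b was at 0.96 ± 0.36 in place of 0.94 ± 0.22. The others fell: Kif5a from 1.13 to 0.97, Kif5c from 0.64 to 0.48, Kif21a from 0.77 to 0.60 and Kif16b to 0.97. Kif1b, Kif2a and Kifap3, which kept their call, rose to 1.74, 1.46 and 1.04. The members' median fell from 0.65 to 0.44. The score ran from 5.06 to 5.64 at ZT20 and from 4.38 to 5.14 at ZT8. Its part in the larger standard errors was not tested.

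**Figure D2:**
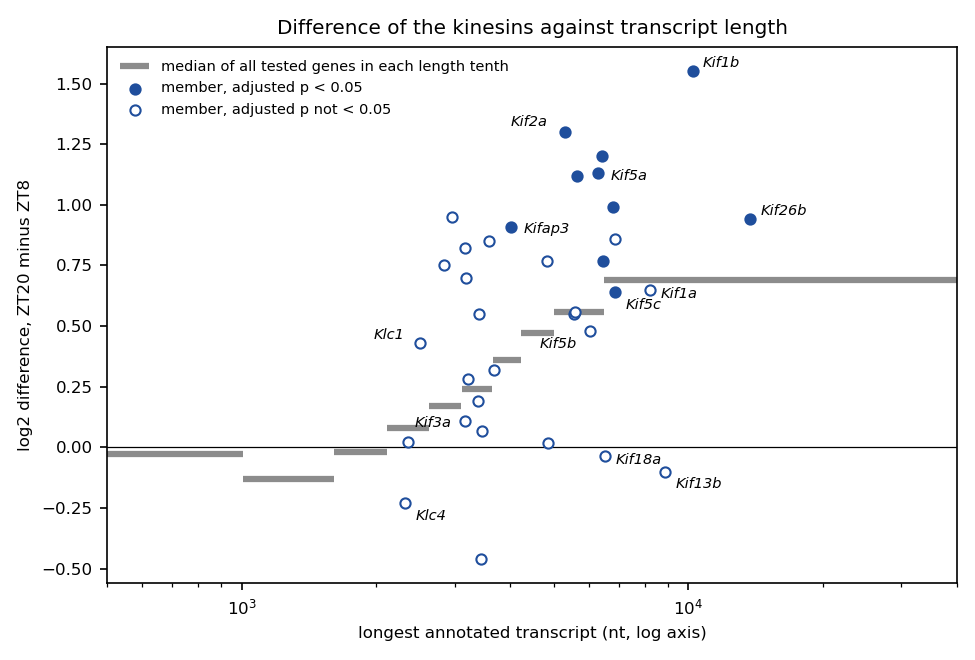
Log2 difference (ZT20 minus ZT8) against the longest annotated transcript in nt (log axis) for the 34 tested kinesins and light chains (points, filled for an adjusted p under 0.05). Grey bars span each of 10 length bins of all tested genes at that bin's median difference, from −0.028 in the shortest to 0.69 in the longest; 9 of the 10 filled points lie in the 2 longest bins.

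Kif1b is a kinesin-3 motor that carries mitochondria and synaptic vesicle precursors along axons. It had the largest difference of the tested members on the log2(TPM + 1) scale, before any correction. It was at 161, 170, 190 and 198 TPM at ZT20 and at 61.8, 66.1 and 54.6 TPM at ZT8, each list in the order of the replicate numbers. Each ZT20 sample was far above each ZT8 sample, and the mean at ZT20 was 2.95 times that at ZT8. The log2 difference was 1.55 ± 0.13 (SE; adjusted p = 0.00152, limma), and 0.81 after the length and GC correction. Its adjusted p ran from 0.000288 to 0.0776 over 19 alternatives and passed in 18 of them, the exception being the fit without ZT20 replicates 3 and 4.

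Kif2a, which removes tubulin from microtubule ends and limits the growth of axon branches, showed the next largest difference. It was at 27.8, 32.5, 27.7 and 25.0 TPM at ZT20 and at 10.4, 12.2 and 9.99 TPM at ZT8. The groups were well apart, with a log2 difference of 1.30 ± 0.16 (SE; adjusted p = 0.00327, limma). After the length and GC correction the difference was 0.88, above that of Kif1b (0.81). The adjusted p of Kif2a passed in 18 of 19 alternatives (range 0.000742 to 0.112). Many members overlap another annotated gene when whole gene spans, introns included, are compared, so the assignment of their reads may be uncertain. Overlap of exons was not checked. Kif1b, Kifap3, Kif1a, Kif3a, Kif3b, Kif5a and Kif23 overlap none. Among the overlapping members are Klc1, Klc2, Klc4, Kif3c, Kif5b, Kif5c, Kif11, Kif16b, Kif21a, Kif22 and Kif26b, and Kif2a overlaps Dimt1 on the opposite strand in GENCODE M21, and how strand was treated is not stated in the sources used here.

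Kifap3, the adaptor subunit of heterotrimeric kinesin-2, was at 159, 193, 183 and 196 TPM at ZT20 and at 104, 92.6 and 94.4 TPM at ZT8. The lowest ZT20 sample lay above the highest ZT8 sample, and the log2 difference was 0.91 ± 0.12 (SE; adjusted p = 0.00403, limma). It was 0.59 after the length and GC correction, and the adjusted p passed in 17 of 19 alternatives (range 0.00157 to 0.137).

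Promoter windows of 300 bases (250 before the transcript start to 50 after it) came from RefSeq on GRCm38.p6, whereas the submitters' processing notes name GRCm39. They matched 37 of the 48 members in 41 windows, and Kif5a, Kif5b, Kif13b, Kif19a, Kif19b, Kif20a, Kif21b, Kif28, Kifc2, Kifc3 and Klc2 had none. The E-box letters CACGTG, the site of the CLOCK and BMAL1 factors of the circadian clock, were searched because the samples differ in time of day. They occurred in 2 of the 41 windows (4.88%), those of Klc4 and of one of the 2 Kif1a windows, and in 7.15% of the 32851 windows read from the table. The windows of Kif1b, Kif2a and Kifap3 did not hold these letters. The promoters of Kif1b and Kifap3 are shown because these genes passed after the length and GC correction, and that of Klc4 because it held the E-box letters. Kif2a also passed after that correction, but its windows held neither CCAAT nor CACGTG and are not shown. The Kif1a window with the E-box letters is not shown either. Capitals mark CCAAT (or its reverse complement ATTGG, found in 37.4% of all windows) and CACGTG.
Kif1b (chr4:149307649-149307948, - strand): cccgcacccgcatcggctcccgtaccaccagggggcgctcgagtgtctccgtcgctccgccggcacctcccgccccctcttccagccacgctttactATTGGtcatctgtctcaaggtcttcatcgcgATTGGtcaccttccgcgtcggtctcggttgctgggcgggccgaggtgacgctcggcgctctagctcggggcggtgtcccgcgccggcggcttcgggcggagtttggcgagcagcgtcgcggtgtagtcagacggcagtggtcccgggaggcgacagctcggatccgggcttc
Kifap3 (chr1:163779333-163779632, + strand): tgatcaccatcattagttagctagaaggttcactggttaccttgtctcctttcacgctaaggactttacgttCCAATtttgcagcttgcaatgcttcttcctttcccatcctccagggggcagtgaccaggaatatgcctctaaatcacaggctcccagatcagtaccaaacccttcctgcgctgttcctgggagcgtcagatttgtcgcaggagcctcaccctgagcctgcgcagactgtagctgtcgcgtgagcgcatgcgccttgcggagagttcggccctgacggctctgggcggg
Klc4 (chr17:46646031-46646330, - strand): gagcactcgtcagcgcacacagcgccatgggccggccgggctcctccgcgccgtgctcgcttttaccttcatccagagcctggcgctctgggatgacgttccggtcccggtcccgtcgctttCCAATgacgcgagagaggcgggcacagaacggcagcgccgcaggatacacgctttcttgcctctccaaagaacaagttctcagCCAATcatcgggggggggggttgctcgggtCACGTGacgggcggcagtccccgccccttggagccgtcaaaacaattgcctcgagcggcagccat

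The kinesin-1 heavy chains are the main anterograde motors of axons: Kif5a and Kif5c are enriched in neurons, and Kif5b is found in most cells. Kif5a was at 238, 171, 285 and 285 TPM at ZT20 and at 140, 84.4 and 109 TPM at ZT8. All ZT20 samples were higher, with a log2 difference of 1.13 ± 0.23 (SE; adjusted p = 0.0152, limma). Kif5c was at 276, 253, 274 and 316 TPM against 184, 156 and 197 TPM, again without overlap, that is, a log2 difference of 0.64 ± 0.13 (SE; adjusted p = 0.0143, limma). Kif5b, the most abundant of the trio, was at 331, 321, 369 and 377 TPM at ZT20 and at 272, 160 and 353 TPM at ZT8. The Kif5b ranges overlapped through ZT8 replicate 3, and its log2 difference of 0.48 did not pass (standard error 0.24, limma adjusted p = 0.182). After the length and GC correction the log2 differences of Kif5a, Kif5c and Kif5b were 0.48, 0.0047 and −0.036, and none passed. The calls of Kif5a and Kif5c each held in 13 of 19 alternatives. They were narrowly lost without ZT20 replicate 3 (limma adjusted p = 0.057 and 0.0538) or without ZT20 replicate 4 (0.0532 and 0.0506), and lost with the marker score (0.228 and 0.243), where the differences were 0.97 ± 0.36 and 0.48 ± 0.18 (SE). With 1 replicate left out the difference of Kif5a ran from 0.95 to 1.31 and that of Kif5c from 0.55 to 0.72. Without ZT8 replicate 2 the difference of Kif5b was 0.17.

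The ratio of Kif5a to Kif5b within a sample does not depend on how samples are scaled. It was 0.718, 0.532, 0.773 and 0.756 at ZT20 and 0.515, 0.526 and 0.309 at ZT8. The ranges did not overlap, but ZT20 replicate 2 lay close to the ZT8 samples. As a share of the summed Kif5 TPM, Kif5a made up 22.9% to 30.7% at ZT20 and 16.5% to 23.5% at ZT8, with overlap. Their longest transcripts are of similar length, 6295 nt for Kif5a and 6032 nt for Kif5b. These within-sample ratios were chosen after the values were seen and were not tested.

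**Figure D3:**
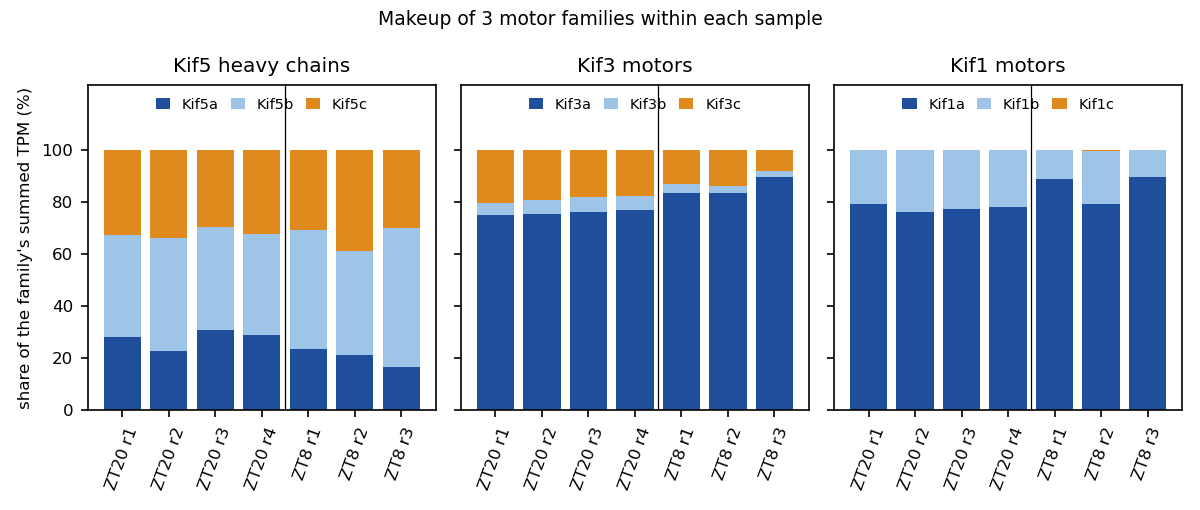
Share of the family's summed TPM (vertical axis, %) taken by each Kif5, Kif3 and Kif1 motor in each of the 7 samples, ZT20 left and ZT8 right of the line. Kif3a took 75.0% to 76.7% at ZT20 and 83.2% to 89.6% at ZT8, and Kif1b took 20.9% to 23.9% and 10.2% to 20.3%.

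Kinesin light chains join the heavy chains to cargo. Klc1 was the most abundant gene of all 48, with 39.1% to 45.8% of their summed TPM in each sample. It was at 1950, 1845, 2079 and 2083 TPM at ZT20 and at 1721, 1119 and 1667 TPM at ZT8. The ranges did not overlap, with ZT8 replicate 2 far below the rest, but the log2 difference of 0.43 did not pass (standard error 0.16, limma adjusted p = 0.0955) and was 0.23 without that library. Klc2 was at 134, 101, 161 and 172 TPM against 100, 55.6 and 87.1 TPM. Its lowest ZT20 sample was just above its highest ZT8 sample, and the log2 difference of 0.82 narrowly missed the threshold (standard error 0.24, limma adjusted p = 0.0523). Klc2 passed at a mean of at least 5 TPM, with array weights, with the replicate block, without ZT20 replicate 2 and without ZT8 replicate 1, and not in the other alternatives (adjusted p 0.0233 to 0.508).

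Klc4 was the one light chain with lower values at ZT20, at 31.7, 32.5, 35.2 and 33.3 TPM against 39.9, 39.7 and 37.5 TPM at ZT8. The groups were close but did not overlap. The log2 difference was −0.23 with a standard error of 0.12, which did not pass (limma adjusted p = 0.210, range 0.0328 to 0.737 over the alternatives), and it was −0.47 with median-ratio scaling, where it passed. The ratio of Klc4 to Klc1 was 0.0160 to 0.0176 at ZT20 and 0.0225 to 0.0355 at ZT8. The longest transcripts of both are short for this family, 2322 nt for Klc4 and 2504 nt for Klc1. Klc3 had a mean under 1 TPM and was not tested.

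**Figure D4:**
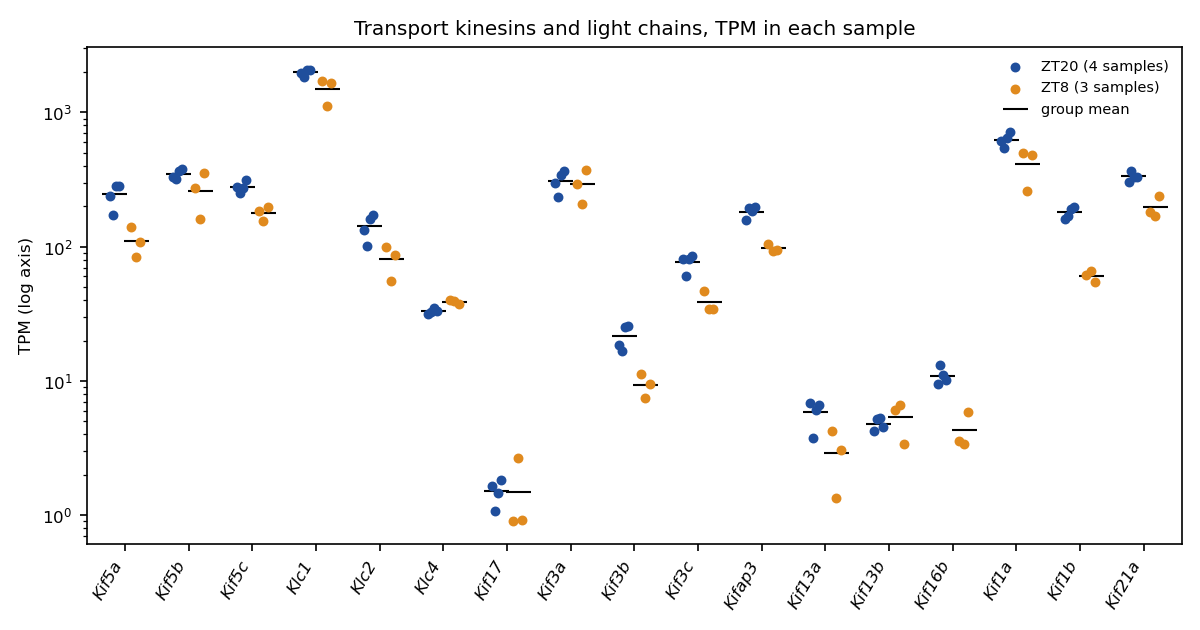
TPM (log axis) of the 17 tested transport kinesins and light chains in each of the 4 ZT20 and 3 ZT8 samples (points), with group means as bars. Levels span from Klc1 at the top to Kif17 at the bottom, and the groups are apart in Kif1b, Kifap3, Kif5a, Kif3b and Kif3c and mixed in Kif3a, Kif17 and Kif13b.

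The kinesin-2 motors Kif3a, Kif3b and Kif3c pair with each other and, with Kifap3, carry vesicles in axons and cargo along cilia. Kif3a was at 296, 236, 340 and 367 TPM at ZT20 and at 292, 207 and 375 TPM at ZT8, with the highest sample at ZT8. Its log2 difference of 0.11 (standard error 0.22, 95% interval −0.39 to 0.61) did not pass in limma and took the opposite sign with median-ratio scaling (−0.14). Kif3b was at 18.5, 16.8, 25.1 and 25.8 TPM against 11.2, 7.42 and 9.45 TPM, that is, a log2 difference of 1.12 ± 0.22 (SE; adjusted p = 0.0137, limma). Kif3c, a neuronal form that is known to rise after axon injury, was at 80.4, 60.9, 80.8 and 85.6 TPM against 46.7, 34.3 and 34.3 TPM. Its log2 difference was 0.99 ± 0.17 (SE; adjusted p = 0.0101, limma), and neither Kif3b nor Kif3c overlapped between the groups. Kif3b held its call in 13 of 19 alternatives, losing it without ZT20 replicate 3 (limma adjusted p = 0.0573) or replicate 4 (0.0513), and Kif3c held in 15. With 1 replicate left out the difference of Kif3b ran from 0.98 to 1.24.

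Within each sample, Kif3b stood at 0.0626, 0.0711, 0.0739 and 0.0703 of the Kif3a level at ZT20 and at 0.0382, 0.0358 and 0.0252 at ZT8. The ratio of Kif3c to Kif3a was 0.233 to 0.271 at ZT20 and 0.0915 to 0.165 at ZT8. Neither ratio overlapped between the groups. The longest transcripts of Kif3b (5635 nt) and Kif3c (6791 nt) exceed that of Kif3a (3161 nt). With length and GC content corrected, the log2 differences of Kif3a, Kif3b and Kif3c were −0.091, 0.55 and 0.33, of which none passed. Kif17, a dendritic and ciliary motor, was at 0.904 to 2.67 TPM over all samples with a log2 difference of 0.068 that did not pass (limma adjusted p = 0.894).

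Kif1a, the kinesin-3 motor of dense-core vesicles and synaptic vesicle precursors, was the most abundant motor at 608, 540, 641 and 709 TPM at ZT20 and 500, 258 and 481 TPM at ZT8. The ranges were apart, with ZT8 replicate 2 lowest, but its log2 difference of 0.65 did not pass (standard error 0.23, limma adjusted p = 0.0830) and was −0.092 after the length and GC correction. Without ZT8 replicate 2 the difference of Kif1a was 0.34. Kif1b stood at 0.265 to 0.315 of the Kif1a level at ZT20 and at 0.123, 0.256 and 0.113 at ZT8, so ZT8 replicate 2 came near the ZT20 samples. Both transcripts are long, 8206 nt for Kif1a and 10233 nt for Kif1b.

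Of the other transport kinesins, Kif21a was abundant and the rest were at lower levels. Kif16b, which moves early endosomes, was at 9.56, 13.1, 11.1 and 10.2 TPM at ZT20 and at 3.55, 3.41 and 5.91 TPM at ZT8. All its ZT20 samples were higher, with a log2 difference of 1.2 ± 0.23 (SE; adjusted p = 0.0128, limma). Kif21a, a kinesin-4 that restrains microtubule growth, was at 305, 367, 329 and 332 TPM against 181, 170 and 239 TPM, that is, a log2 difference of 0.77 ± 0.14 (SE; adjusted p = 0.0114, limma). After the length and GC correction Kif16b was at 0.60 and Kif21a at 0.16, and neither passed (limma adjusted p = 0.139 and 0.515). Kif16b also lost its call with the replicate block (difference 1.23, adjusted p = 0.0503 in limma), without ZT20 replicate 3 (the same difference as with it, 0.0542) and with the marker score (0.97, 0.217). Kif21a lost it with the marker score (0.60, 0.205). Kif13a and Kif13b, which carry endosomal and membrane cargo, differed by 0.86 and −0.10 with overlapping ranges, and neither passed (limma adjusted p = 0.0989 and 0.807). Kif13a was at 0.53 without ZT8 replicate 2 and at 0.19 after the length and GC correction. Kif13b ran from 4.21 to 5.27 TPM at ZT20 and from 3.41 to 6.66 TPM at ZT8. Its longest transcript is of 8865 nt, and its difference was −0.84 after the length and GC correction. Kif1c and Kif21b had means under 1 TPM and were not tested.

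Of the other kinesins, Kif26b also passed, although at a low level. It was at 2.72, 2.50, 3.18 and 2.97 TPM at ZT20 and at 1.15, 0.929 and 0.921 TPM at ZT8, with every ZT20 sample higher, and the log2 difference was 0.94 ± 0.22 (SE; adjusted p = 0.0260, limma). Its call held in 7 of 18 alternatives, and its longest transcript, of 13749 nt, was the longest of the tested members. The log2 difference of Kif26b was 0.14 after the length and GC correction and did not pass (limma adjusted p = 0.703). Of the 15 genes in this group 8 were tested and 2 passed higher, Kif2a and Kif26b, against 12.8% of all tested genes higher. Kif12 and Kif2b were listed at 0 in all 7 samples.

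The mitotic kinesins were scarce. Apart from Kif22, the 12 other mitotic kinesins together summed to 25.1, 16.0, 13.5 and 17.1 TPM at ZT20 and to 11.5, 16.5 and 9.09 TPM at ZT8. Of 13 genes 9 were tested and 0 passed in limma, with 2 at an unadjusted p under 0.05 (Kif11 and Kif22), against 16.4% and 34.6% of all tested genes. Kif2a, a relative of Kif2c that passed, was placed with the other kinesins, so the count of 0 depends on that grouping. The log2 difference was positive for 8 of the 9, against 66.4% of all tested genes, with a median of 0.55. That median was 0.41 with median-ratio scaling, 0.024 with quantile normalization, 0.094 after the length and GC correction and 0.24 with the marker score. Without ZT8 replicate 2, 3 passed, all higher at ZT20 (Kif11, Kif22 and Kif23), against 16% of all genes. The replicate block gave 1 (Kif22) against 6.02% of all genes higher, and array weights gave 2 (Kif11 and Kif22) against 20.1%.

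Kif22, a chromokinesin that pushes chromosome arms, stood out with 30.3, 41.6, 26.7 and 25.5 TPM at ZT20 and 17.9, 24.8 and 9.89 TPM at ZT8. The groups did not overlap, although the highest ZT8 sample nearly reached the lowest ZT20 sample, and the log2 difference of 0.85 did not pass (standard error 0.30, limma adjusted p = 0.0827). Kif11, the spindle motor that also restrains axon growth in neurons, was at 4.18, 1.85, 2.21 and 2.03 TPM at ZT20 and at 0.623, 1.83 and 0.838 TPM at ZT8, a log2 difference of 0.77 (standard error 0.32, limma adjusted p = 0.130). Kif23, a midzone motor of cell division, was at 2.34, 2.25, 1.18 and 1.40 TPM against 0.468, 2.98 and 0.132 TPM. ZT8 replicate 2 was the highest of all for Kif23, Kif15, Kif18a, Kif14 and Kifc1, yet was listed at 0 for Kif2c, Kif4 and Kifc5b.

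The log2 differences of Kif2c, Kif20b, Kif20a, Kif23, Kifc1, Kif15 and Kif18a were 0.75, 0.55, 0.32, 0.55, 0.022, 0.020 and −0.034, and their ranges overlapped between the groups. The signs of Kifc1 and Kif15 were negative with median-ratio scaling. With 1 replicate left out Kif2c ran from 0.49 to 1.00, Kif20b from 0.04 to 1.01, Kif20a from 0.18 to 0.43 and Kif23 from 0.18 to 1.09. Kifc1 and Kifc5b are close paralogs, so the split of reads between them is uncertain. Proliferation markers outside the symbol rule (15 genes with the kinesin Cenpe among them, 13 tested) summed to 93.6 to 162 TPM at ZT20 and 107 to 118 TPM at ZT8. In limma 0 passed the threshold and 4 had an unadjusted p under 0.05, against 16.4% and 34.6% of all tested genes. Of these 4, Plk1, Top2a and Tpx2 were higher at ZT20 and Pcna was lower. ZT20 replicate 1 was highest both for those markers, at 162 TPM, and for the 12 mitotic kinesins; the part of dividing cells in these values was not tested.

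**Figure D5:**
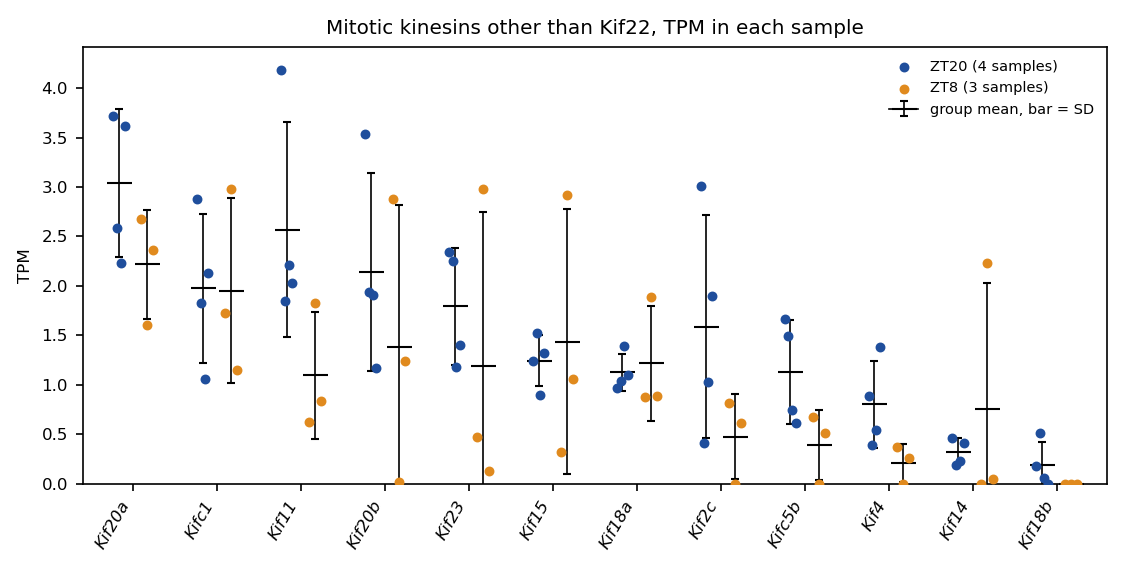
TPM of the 12 mitotic kinesins other than Kif22 in each of the 4 ZT20 and 3 ZT8 samples (points), with group means and SD bars (cut at 0). Values lie between 0 and 4.18 TPM, and ZT8 replicate 2 is the isolated high point of Kif14, Kif15 and Kif23 at ZT8.

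The mitotic kinesins shared a promoter feature that the symbol rule did not use. The letters TTTGAA (on either strand), the core of the cell cycle genes homology region that silences such genes in resting cells, occurred in 11 of their 12 windows (91.7%). They occurred in 1 of 17 windows of the transport kinesins and light chains (5.88%) and in 17.9% of all windows. In 9 of the 12 the letters began within 30 bases of the transcript start, against 3.19% of all windows and 0 of 17 transport windows; that distance was chosen after the positions were seen. The Kif18a window held no match, and CCAAT occurred in 8 of the 12 (66.7%). Over all 41 windows of members the share with TTTGAA was 34.1%. Of the genes placed with the other kinesins, Kif26b and Kif27 held these letters, while Kif2a and Kif2b, relatives of Kif2c, did not. The share of 91.7% thus depends on how the genes were grouped. The 9 windows with a match within 30 bases of the start are shown, with the shared letters in capitals. They let the near-identical flanks of Kifc1 and Kifc5b be seen side by side. Each has 12 bases on either side, on the strand that reads TTTGAA. In Kif20b another TTTGAA follows directly and is left in lower case.
Kif11 (chr19:37376351-37376380, - strand): ccgcgcctcaatTTTGAAaaatggagacga
Kif15 (chr9:122951050-122951079, - strand): gatggccgcagaTTTGAAtttggcgcccca
Kif18b (chr11:102925104-102925133, - strand): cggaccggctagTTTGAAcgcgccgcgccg
Kif20b (chr19:34922353-34922382, + strand): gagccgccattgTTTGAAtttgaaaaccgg
Kif22 (chr7:127042420-127042449, + strand): ccgcttctctctTTTGAAttaccggggccc
Kif23 (chr9:61946780-61946809, - strand): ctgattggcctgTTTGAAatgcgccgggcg
Kif4 (chrX:100626072-100626101, + strand): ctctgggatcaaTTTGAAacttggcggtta
Kifc1 (chr17:33890615-33890644, + strand): acacccgccactTTTGAAtttcaacctccg
Kifc5b (chr17:26917108-26917137, - strand): acaccagtcactTTTGAAtttcaacctccg

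Cargo adaptors and regulators of kinesins were counted as the wider pathway. Of 29 listed and tested genes, 12 rose at ZT20 and 0 fell, against 12.8% and 3.61% of all tested genes, and their median log2 difference was 0.65. That median was 0.41 with median-ratio scaling, 0.4 with quantile normalization and 0.19 after the length and GC correction. Mapk8ip1 (JIP1, a scaffold that links kinesin-1 to vesicles) was at 169, 95, 172 and 174 TPM at ZT20 and at 73.7, 34.1 and 54.3 TPM at ZT8, that is, a log2 difference of 1.51 ± 0.30 (SE; adjusted p = 0.0145, limma). Arl8a, a small GTPase that recruits kinesins to lysosomes, was at 120 to 137 TPM against 42.1 to 69.5 TPM, that is, a log2 difference of 1.09 ± 0.18 (SE; adjusted p = 0.00939, limma). Clstn1, a membrane cargo receptor for Klc1, differed by 1.36 and Kidins220, a neurotrophin receptor scaffold, by 1.07. These 4 genes were higher in every ZT20 sample than in any ZT8 sample.

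The mitochondrial adaptors Trak1 and Trak2, which join kinesin-1 to the outer membrane protein Rhot1, differed by 1.07 and 1.22 and both passed, Trak1 narrowly (limma adjusted p = 0.0463). Trak1 held in 4 of 19 alternatives and not with median-ratio scaling, whereas Trak2 held in 15. Without ZT8 replicate 2 Trak1 was at 0.68 and Trak2 at 1.26. Rhot1 was at 80.1, 83.8, 92.8 and 98.3 TPM at ZT20 and at 95.1, 55.3 and 79.5 TPM at ZT8, overlapping, with a log2 difference of 0.24 that did not pass (limma adjusted p = 0.388) and was −0.0086 with median-ratio scaling. The liprins Ppfia2, Ppfia3 and Ppfia4 (1.26, 1.05 and 0.92), the Kif1 adaptor Madd (1.15), the scaffold Mapk8ip3 (0.89) and the kinesin-1 recruiter Map7 (0.65) also passed. Of these, Ppfia3 and Ppfia4 each held in 4 of 19 alternatives, Madd in 7, Map7 in 8, Mapk8ip3 in 10 and Ppfia2 in 12. Without ZT8 replicate 2 the liprins were at 1.56, 0.65 and 0.64, Madd at 0.76, Mapk8ip3 at 0.70 and Map7 at 0.48. After the length and GC correction 3 of the 29 passed, namely Mapk8ip1, Arl8a and Clstn1, against 3.8% of all genes higher. With the marker score as covariate 0 of the 29 passed in limma, against 1.17% of all genes higher, and without ZT20 replicates 3 and 4 also 0, as for all genes. With that covariate Trak2 was at 1.21 ± 0.30 (SE) and Kidins220 at 1.04 ± 0.25, near their values without it, while Clstn1 was at 0.86 ± 0.43. Without ZT20 replicate 1 the number was 5, against 6.39% of all genes higher, and without ZT20 replicate 3 or 4 it was 3, against 3.67% and 4.67%.

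The other cell type lists were read beside these results. Over all tested genes 12.8% passed higher and 3.61% lower, and 34.6% had an unadjusted p under 0.05 in limma. Of 10 neuron markers 1 passed higher; of 6 satellite glia markers 2 passed lower; of 6 Schwann cell markers 1 passed lower; of 8 macrophage markers 1 passed higher and 1 lower; of 4 tested plasma cell markers 1 passed lower. Of 3 tested fibroblast markers and 1 tested endothelial marker 0 passed in limma, with 1 and 0 at an unadjusted p under 0.05. Summed Schwann cell markers ran from 1615 to 1965 TPM at ZT20 and from 1899 to 2304 TPM at ZT8, and summed plasma cell markers from 267 to 485 TPM and from 496 to 933 TPM. Summed macrophage markers ran from 74.0 to 106 TPM and from 88.6 to 209 TPM, fibroblast markers from 68.0 to 94.8 TPM and from 76.9 to 184 TPM, and endothelial markers from 2.68 to 4.05 TPM and from 0.966 to 3.8 TPM. None of the listed markers was at 0 in all samples.

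The 14 members that were not tested had means up to 0.864 TPM, and the tested member with the lowest mean was at 1.09 TPM. They comprised Kif1c, Kif21b and Klc3 of the transport group, Kif4, Kif14, Kif18b and Kifc5b of the mitotic group, and Kif2b, Kif6, Kif7, Kif12, Kif26a, Kif27 and Kif28. Their highest single value was 2.23 TPM, for Kif14 in ZT8 replicate 2. The remaining tested members, Kif9, Kif19a, Kif19b, Kif24, Kifc2 and Kifc3, had log2 differences from −0.46 (Kif19a) to 0.95 (Kif19b), and none passed.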

How the data were processed

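RNA abundance was measured in 7 libraries (ZT20, 4; ZT8, 3). The authors deposited 1 table of TPM with 54309 genes. FastQC 0.11.9, Trim Galore 0.6.6, Salmon 1.6.0, DESeq2 1.34.0 and the build GRCm39 are named in the submitters' processing notes; the annotation release and the gene-level summing are not given in the sources used here. All 7 columns were mapped by title. Depth and counting error are unknown, because the deposited TPM sum to 1000000 and hold no counts.

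log2(TPM + 1) was fitted with limma 3.58.1 (R 4.3.3, lmFit and eBayes with an intensity trend, no covariates, two-sided) for the 14800 genes whose mean reached 1 TPM, with Benjamini-Hochberg adjustment over all of them and a threshold of 0.05. On simulated data for 14800 genes, 200 were changed by 1.5 on the log2 scale. The fit found 57.5% of them with 6.5% false calls, and made 0 calls on simulated data without changes. Whether these rates hold for the deposited samples was not tested. Transcript length and GC content came from the longest GENCODE M21 transcript (GRCm38), matched by identifier for 14745 tested genes and all 48 members. Each sample's trend with both was removed by loess (span 0.3) as an alternative.

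The members, gene lists and tests were chosen with earlier results of these data known. Named genes were every tested transport and mitotic kinesin, other kinesins past the threshold, and adaptors past the threshold together with Trak1, Rhot1 and Mapk8ip3. Alternatives were another pseudocount (0.1), no filter or a stricter one (mean of 5 TPM), median-ratio and quantile scaling, the length and GC correction, a marker score covariate, the replicate block, no intensity trend, array weights, and leaving out replicates. Reads of overlapping genes and close paralogs may be shared. Figures used matplotlib 3.10.9.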

Additional observations from a re-analysis of the deposited data

Results flagged for a closer look

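In the ZT20 group, 47 genes (the tested kinesins and light chains and the named adaptors) were checked for a sample far from the rest, judged by its gap to the nearest sample as a share of the group's range (Dixon's criterion). It found 2, and chance alone flags about 1 in 20 groups, or 2.35 of 47. For Kif11, ZT20 replicate 1 (4.18 TPM) lay far above the other ZT20 values (1.85 to 2.21 TPM), with a gap share of 0.843. For Mapk8ip1, ZT20 replicate 2 (95 TPM) lay far below the remaining ZT20 values (169 to 174 TPM), with a gap share of 0.938. The cause was not tested for either.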

How the results depend on the processing

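Of 768 values of 41 named genes under 19 alternatives, 558 kept their direction and their side of the threshold, 151 kept the direction and lost the call, 13 gained a call and 46 changed sign, 1 of them (Kif5c) for a gene past the threshold. For each change the cause was not tested. The replicate numbers pair no samples by label, and same-numbered samples correlated at −0.0141, 0.153 and 0.083 in their deviations from the group means.

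The number of kinesins and light chains past the threshold, and of those higher at ZT20, moved from 10 to 3 with the length and GC correction, to 2 with that correction and the replicate block, to 3 with the marker score and to 0 without ZT20 replicates 3 and 4. Leaving out 1 replicate each gave 5 to 13. The replicate block alone gave 10, with Kif16b and Kif26b lost and Klc2 and Kif22 gained, and array weights gave 14. The number lower at ZT20 was 1 with median-ratio scaling. Transport kinesins moved from 8 to 2, 1, 2 and 0 under the same settings in the same order, and to 4 to 9 with 1 replicate left out. Mitotic kinesins moved from 0 to 1 with the replicate block, to 2 with array weights and to 0 to 3 with 1 replicate left out. Adaptors moved from 12 to 5 without a filter, to 7 with median-ratio scaling, to 7 with quantile normalization, to 3 with the length and GC correction, to 3 with the correction and the block, to 0 with the marker score and to 0 without ZT20 replicates 3 and 4, and to 3 to 12 with 1 replicate left out. All tested genes past the threshold numbered 2433, and 1178 without a filter, 1174 with the replicate block, 1336 with the length and GC correction, 557 with both, 3899 with array weights, 180 with the marker score, 0 without ZT20 replicates 3 and 4 (2425 at an unadjusted p under 0.05 in limma), and 624 to 3055 with 1 replicate left out.

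The median log2 difference of the tested members, 0.65, was 0.80 with a pseudocount of 0.1, 0.77 at a mean of at least 5 TPM, 0.42 with median-ratio scaling, 0.49 with quantile normalization, 0.15 with the length and GC correction, 0.18 with the block added, 0.44 with the marker score, 0.65 without ZT20 replicates 3 and 4 and 0.51 to 0.71 with 1 replicate left out. The following signs changed. With median-ratio scaling Kif15 was at −0.12, Kif17 at −0.087, Kif3a at −0.14, Kifc1 at −0.14 and Rhot1 at −0.0086. With quantile normalization Kif15 was at −0.30, Kif17 at −0.22, Kif20a at −0.0052 and Kifc1 at −0.26. With the length and GC correction Kif15 was at −0.40, Kif17 at −0.33, Kif1a at −0.092, Kif3a at −0.091, Kif5b at −0.036, Kifc1 at −0.13 and Rhot1 at −0.11. With the block added Kif15 was at −0.40, Kif17 at −0.37, Kif1a at −0.12, Kif20a at −0.025, Kif3a at −0.17, Kif5b at −0.047, Kif5c at −0.019, Kifc1 at −0.15 and Rhot1 at −0.14. With the replicate block alone Kifc1 was at −0.014. With array weights Kif13b was at 0.0037 and Kif18a at 0.19, and with the marker score Kif13b at 0.43, Kif18a at 0.21 and Kif3a at −0.34. Without ZT20 replicates 3 and 4 Kif17 was at −0.015 and Kif3a at −0.10. With 1 replicate left out Kif13b ran from −0.34 to 0.056, Kif15 from −0.35 to 0.44, Kif17 from −0.092 to 0.38, Kif18a from −0.14 to 0.17, Kif3a from −0.12 to 0.31 and Kifc1 from −0.18 to 0.26. Depth is unknown, so counting error could not be given.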
